A study of Arabidopsis thaliana with 12 samples.

Results

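A stretch of the long arm of Arabidopsis thaliana chromosome 4 is described here gene by gene. Its members are the rows of the deposited expression table with a locus name from AT4G32840 to AT4G33500, 58 of 20777 loci. The range holds 60 rows, of which 2 are not analysed here. The bounds were selected on the log2 changes of gra2-D, gra3-D and gra1-D against wild type on these same arrays, as a run that was higher in gra2-D and gra3-D, called the raised lines here, and not in gra1-D. Changes of its members against wild type, and their differences from gra1-D, are therefore a description and carry no test. The files name no genome build, and members are placed by the order of their locus names.

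ATH1 arrays measured RNA from the vegetative part of seedlings that had reached growth stage 1.03 at 22 °C on MS medium, under days of 16 h light and nights of 8 h. The groups were gra2-D, gra3-D, gra1-D and wild type (WT), with 3 biological replicates each, and all 12 arrays stand for the Col-0 ecotype. The series title ties the grandifolia-D mutants to a chromosomal duplication; the labels state neither its bounds nor whether plants carried it on 1 or both homologues. Each mutant line is represented by replicate samples of the same line, so the p-values below measure the spread between such samples and not between independent lines.

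A duplicated piece of chromosome gives a cell extra copies of every gene it holds, and transcripts of such genes often rise with copy number while some are buffered or rise further. Neighbouring genes of a plant chromosome are mostly unrelated in function. The stretch holds genes for hormone and immune signalling (BAK1, ADR1-L1), photorespiration (GLDP1), shoot meristem development (ATH1), the vacuole (GAMMA-VPE) and glycolysis (PFK6) side by side.

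All arrays had log2 medians between 6.36 and 6.43. The Rubisco activase gene RCA, the single leaf photosynthesis marker of 7 listed that was on the table, averaged 14.2 in every group, while all 4 floral organ and all 5 seed storage markers lay under 5 in every group. Of 5 root markers 4 lay under 5 in every group, and the mean level of the root list ran from 4.40 to 4.56 in gra2-D arrays, 4.33 to 4.54 in gra3-D, 4.42 to 4.53 in gra1-D and 4.30 to 4.56 in WT. Of 3 shoot meristem markers CLV3 and WUS lay under 5 in every group, and STM averaged 5.47 in gra2-D, 5.54 in gra3-D, 5.43 in gra1-D and 5.58 in WT. Limma called 0 of these markers in any line. In bulk tissue, more cells of a type and more RNA per cell cannot be told apart.

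Over the stretch, 40 of 58 members (69.0%) were expressed, meaning that their log2 values averaged 6 or more across the 12 arrays, against 54.4% of all loci. This average includes the arrays of the raised lines. LKR/SDH and AT4G32870 had WT means under 6 and passed only through those arrays, so nothing is read from the shares. The median log2 change of these 40 against the WT mean was 0.89, 0.79 and 0.89 on the 3 gra2-D arrays, 0.89, 0.86 and 0.87 on the gra3-D arrays, -0.08, -0.10 and -0.04 on the gra1-D arrays, and -0.0015, -0.03 and 0.044 on the WT arrays. Every gra2-D and gra3-D array lay above every gra1-D and WT array. As group means the median stood at 1.81-fold the WT level in gra2-D (log2 0.86 ± 0.053, SD, n = 3), at 1.83-fold in gra3-D (0.87 ± 0.013) and at 0.953-fold in gra1-D (-0.07 ± 0.031). A doubling would be a log2 change of 1. The same median over all 20777 loci ran from -0.019 to 0.015 on gra2-D arrays, from -0.029 to -0.0086 on gra3-D arrays and from -0.025 to -0.0046 on gra1-D arrays. Over all 58 members, expressed or not, the median was 0.76 in gra2-D, 0.79 in gra3-D and -0.026 in gra1-D.

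All 3 gra2-D arrays lay above all 3 WT arrays for 48 of 58 members (12.3% of all loci did so), and all 3 gra3-D arrays for 49 members (8.92% of all loci). Both held for 46 members, among them the 40 expressed ones, beside 5.76% of all loci. In gra1-D all 3 arrays lay above all 3 WT arrays for 3 members (8.36% of all loci) and below them for 8 (14.2% of all loci). In gra2-D 0 members lay below WT in this way (14.8% of all loci), and in gra3-D 1 did (13.7% of all loci). The 12 members that did not separate in both lines all had a mean over all arrays under 5, close to the array background. Since the rule used these contrasts, nothing is read from the counts. Of the expressed members 11 passed a log2 change of 1 in gra2-D (0.775% of all loci) and 11 in gra3-D (0.553% of all loci), 8 of them in both lines. In gra1-D 0 members did (0.534% of all loci).

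**Figure D1:**
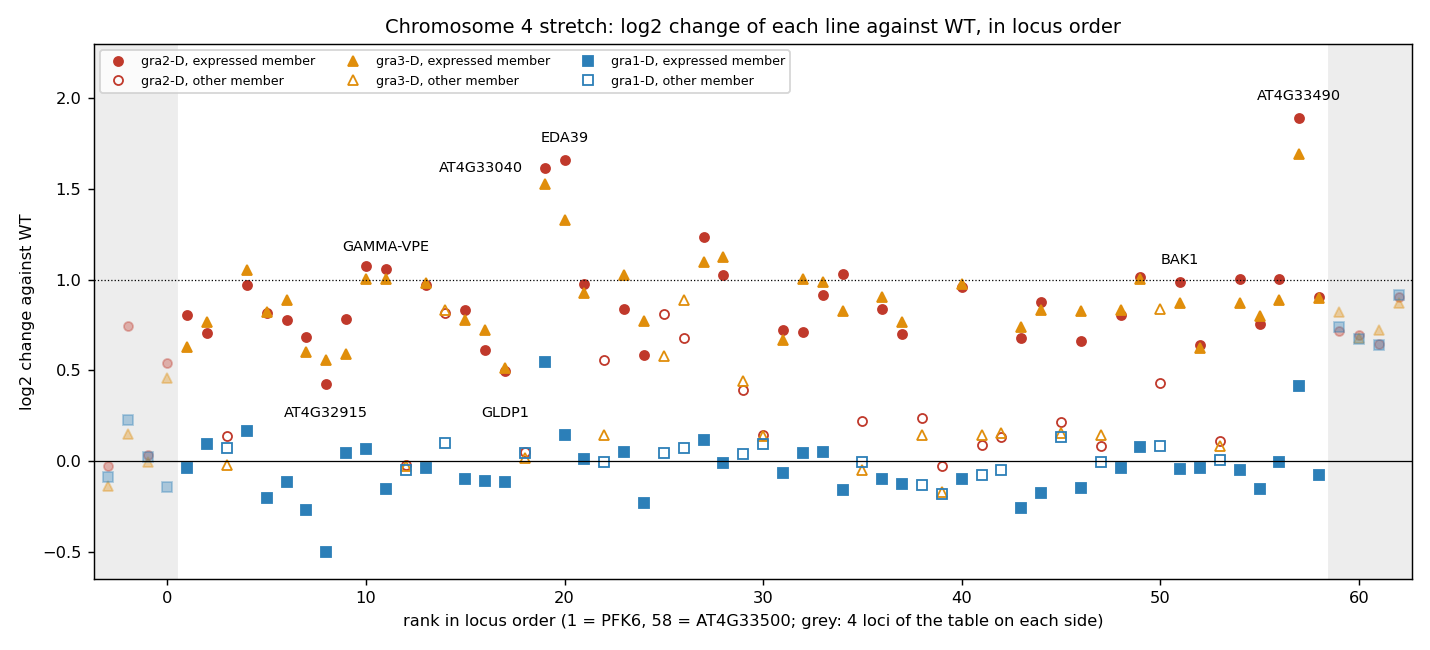
Log2 change against WT (vertical axis) of the 58 members in locus order (horizontal axis), with circles for gra2-D, triangles for gra3-D and squares for gra1-D, filled where a member was expressed; grey bands hold the 4 nearest loci of the table on each side. Filled circles and triangles lie between 0.42 and 1.89 while gra1-D lies between -0.50 and 0.54, and gra1-D joins the other lines right after the last member.

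At the upstream end, the first member PFK6, a phosphofructokinase gene of glycolysis, had log2 values of 8.15, 8.04 and 8.31 in gra2-D, 8.12, 7.89 and 7.96 in gra3-D, 7.21, 7.28 and 7.49 in gra1-D, and 7.33, 7.36 and 7.41 in WT. The raised lines lay above the others on every array, and the log2 change came to 0.80 ± 0.093 (SE) for gra2-D and 0.63 ± 0.093 for gra3-D. Just outside, the mitotic Aurora kinase gene AUR1 stood at 0.54, 0.46 and -0.15 in gra2-D, gra3-D and gra1-D. Next to it CCD8, a strigolactone synthesis gene near background, stood at 0.03, -0.01 and 0.02. Beyond CCD8, AT4G32800, with a WT mean of 4.87, stood at 0.75 ± 0.11 (SE) in gra2-D, 0.15 in gra3-D and 0.23 in gra1-D. AT4G32780, near background, stood at -0.03, -0.14 and -0.09. Where the rise ends upstream in each line is therefore not read from these loci. At the other end AT4G33500, the last member, had 9.88, 9.96 and 9.99 in gra2-D, 9.89, 9.98 and 9.96 in gra3-D, 8.87, 9.03 and 9.01 in gra1-D, and 8.92, 9.11 and 9.11 in WT. It stood at 0.90 ± 0.075 (SE) in both raised lines and at -0.08 in gra1-D. The following locus DHS2, a gene of aromatic amino acid synthesis, stood at 0.72, 0.82 and 0.74, so that gra1-D no longer differed from the other lines in its direction.

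Genes of signalling and immunity were all expressed, and all 5 lay above WT with no overlap in both lines. BAK1 encodes a receptor kinase that pairs with the brassinosteroid receptor and with immune receptors. Its log2 values were 8.95, 8.89 and 8.87 in gra2-D, 8.86, 8.79 and 8.71 in gra3-D, 7.84, 7.86 and 7.92 in gra1-D, and 7.90, 7.86 and 7.98 in WT. The gap between both raised lines and the other arrays was several times the spread within a group, with 1.98-fold the WT level in gra2-D (log2 0.99 ± 0.065, SE) and 1.83-fold in gra3-D (0.87 ± 0.065). ADR1-L1, a helper immune receptor of the NLR class, stood at 0.96 in gra2-D and 0.98 in gra3-D. FAB1A, which makes a phosphoinositide of endosomes, stood at 0.84 and 0.90. CBL10, a calcium sensor of salt tolerance, had 9.63, 9.63 and 9.60 in gra2-D, 9.85, 9.66 and 9.68 in gra3-D, 8.89, 8.90 and 8.90 in gra1-D, and 8.96, 8.92 and 9.14 in WT. It was among the 5 expressed members with the smallest changes, at 0.61 ± 0.074 in gra2-D and 0.72 ± 0.074 in gra3-D.

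EDA39, also named IQM1 for its calmodulin-binding IQ motif, exceeded a doubling. It reached log2 values of 8.62, 7.97 and 7.80 in gra2-D and 7.39, 7.82 and 8.20 in gra3-D, against 6.93, 6.48 and 6.43 in gra1-D and 6.47, 6.54 and 6.39 in WT. The groups did not overlap between raised lines and the rest, and the raised lines spread more widely than WT. Levels stood at 3.16-fold in gra2-D (log2 1.66 ± 0.22, SE) and 2.52-fold in gra3-D (1.33 ± 0.22). Its neighbour in the table, AT4G33040, had 7.92, 7.52 and 7.62 in gra2-D, 7.11, 7.53 and 8.14 in gra3-D, 6.58, 6.50 and 6.76 in gra1-D and 6.12, 6.04 and 6.05 in WT. The arrays of the raised lines were not equally high: gra3-D replicate 1 was the lowest and gra2-D replicate 1 the highest of its group for both loci. AT4G33040 stood at 1.62 ± 0.19 in gra2-D and 1.53 ± 0.19 in gra3-D, and in gra1-D at 0.54 ± 0.19, with all 3 gra1-D arrays above all 3 WT arrays.

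The furthest member from the rest was AT4G33490, which the gene table leaves without a name. Values ran at 8.63, 8.95 and 8.64 in gra2-D, 8.48, 8.67 and 8.46 in gra3-D, 7.28, 7.31 and 7.19 in gra1-D, and 6.53, 7.11 and 6.90 in WT. The raised lines formed a top group, gra1-D an intermediate one and WT the lowest, with no overlap between these levels. The fold over WT was 3.72 in gra2-D (log2 1.89 ± 0.13, SE) and 3.23 in gra3-D (1.69 ± 0.13), and gra1-D stood at 0.41 ± 0.13. Set against gra1-D instead of WT, the differences came to 1.48 in gra2-D and 1.28 in gra3-D.

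**Figure D2:**
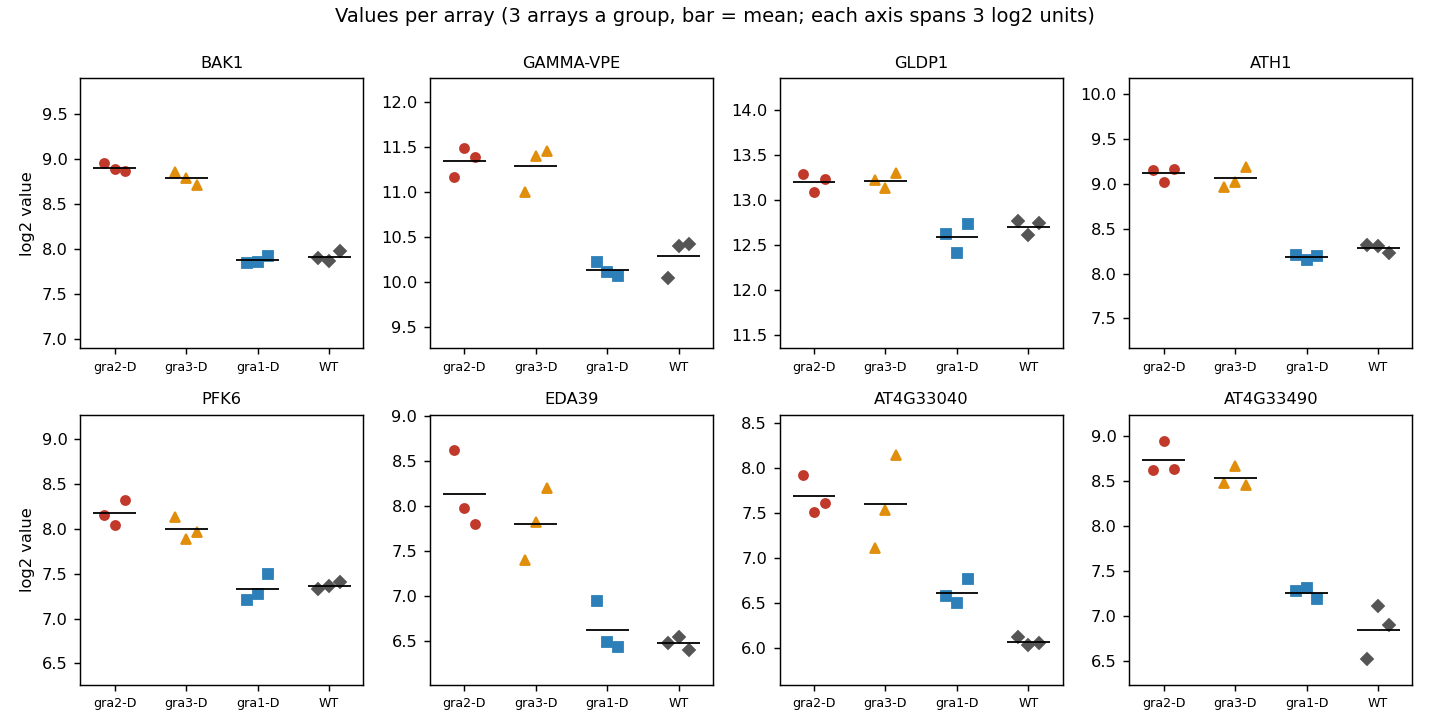
Log2 values (vertical axes, each spanning 3 log2 units) of 8 members on each array, grouped as gra2-D, gra3-D, gra1-D and WT with 3 points a group and a bar at the mean. In each panel all gra2-D and gra3-D points lie above all gra1-D and WT points, with the widest spread within raised lines for EDA39 and AT4G33040.

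The 3 expressed transcription and chromatin genes lay near the median of the stretch. ATH1 encodes a BELL-class homeodomain protein that acts with KNOX proteins at the shoot apex, and had 9.15, 9.02 and 9.17 in gra2-D, 8.97, 9.02 and 9.19 in gra3-D, 8.20, 8.15 and 8.20 in gra1-D, and 8.31, 8.31 and 8.22 in WT. Its log2 change was 0.83 ± 0.073 (SE) in gra2-D and 0.78 ± 0.073 in gra3-D; gra1-D lay slightly under WT on every array, at -0.10. GATA9, a GATA-type zinc finger gene, stood at 0.82 in both lines. HDA14, of the histone deacetylase family, stood at 0.76 in gra2-D and 0.80 in gra3-D. MYB69, a MYB family gene, averaged 3.55 in WT, close to background, with 0.11 in gra2-D and 0.08 in gra3-D.

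Among genes for RNA processing, translation and protein folding, all 3 were expressed and separated from WT in both lines. The nuclear poly(A) polymerase gene nPAP, also known as PAPS4, had 9.30, 9.28 and 9.21 in gra2-D, 9.37, 9.28 and 9.31 in gra3-D, 8.69, 8.52 and 8.73 in gra1-D, and 8.60, 8.47 and 8.60 in WT. Raised and other arrays did not overlap, and the change was 0.71 ± 0.073 (gra2-D) and 0.77 ± 0.073 (gra3-D). EIF3K, a subunit gene of translation initiation factor eIF3, stood at 0.70 and 0.76, and the cyclophilin gene CYP57 (AT4G33060) at 0.98 and 0.93.

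Genes of organelles and photorespiration were all expressed, and all 3 lay above WT without overlap in both lines. GLDP1 encodes the P-protein of the mitochondrial glycine decarboxylase complex, which releases the carbon dioxide of photorespiration. Log2 values were 13.29, 13.09 and 13.23 in gra2-D, 13.22, 13.13 and 13.30 in gra3-D, 12.63, 12.41 and 12.74 in gra1-D, and 12.77, 12.61 and 12.74 in WT. Raised arrays still lay above all others, but by 0.50 ± 0.091 (SE, 1.41-fold) in gra2-D and 0.51 ± 0.091 (1.43-fold) in gra3-D. Averaged over both lines this was the second smallest change among the 40 expressed members, after AT4G32915. Its WT mean of 12.7 was the highest of the stretch. The protein import gene Tic22-IV of the chloroplast envelope stood at 0.68 and 0.74, and the ATP-binding cassette gene ABCI10 at 1.001 and 0.87.

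In primary metabolism 3 of 4 members were expressed. LKR/SDH (AT4G33150), which encodes the bifunctional enzyme of lysine breakdown, had 6.94, 6.89 and 6.70 in gra2-D, 6.87, 6.93 and 7.02 in gra3-D, 6.11, 5.64 and 5.67 in gra1-D, and 5.97, 5.75 and 5.73 in WT. It ranked among the 5 largest changes, at 1.02 ± 0.12 in gra2-D and 1.12 ± 0.12 in gra3-D, and it counted as expressed only through the raised arrays, its WT mean being 5.82. The same is true of AT4G32870, at 0.97 and 1.05 with a WT mean of 5.70. FLDH, a farnesol dehydrogenase gene, stood at 0.88 and 0.83. PDC1 (AT4G33070), a fermentation gene for pyruvate decarboxylase, lay under 5 on every array, at 4.93 in gra2-D replicate 2, 3.996 and 3.97 on the other gra2-D arrays, 3.76 to 4.09 in gra3-D, 3.55 to 3.85 in gra1-D and 3.61 to 3.83 in WT.

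Proteases and protein turnover genes were all expressed, and 2 of the 4 passed a doubling in both lines. GAMMA-VPE encodes a vacuolar processing enzyme, a caspase-like protease of the vacuole in leaves. It had 11.17, 11.48 and 11.38 in gra2-D, 11.0002, 11.40 and 11.46 in gra3-D, 10.22, 10.11 and 10.06 in gra1-D, and 10.04, 10.40 and 10.42 in WT. The raised arrays lay above every other array, at 2.09-fold in gra2-D (log2 1.06 ± 0.13, SE) and 2.003-fold in gra3-D (1.002 ± 0.13). SPPL1, a signal peptide peptidase-like gene, stood at 1.02 and 1.001. The F-box gene SLOMO stood at 0.92 and 0.99, and APM1, a membrane aminopeptidase gene, at 0.58 and 0.77.

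Cell wall, transport and motor genes held 2 expressed members of 4. The pectin methylesterase gene PME44 stood at 1.03 in gra2-D and 0.83 in gra3-D, and XI-I, a class XI myosin gene, at 0.71 and 1.001. PGSIP3, also named GUX2 for its part in xylan decoration, and ZIP9, a metal transporter gene, had WT means of 4.47 and 4.24. PGSIP3 stood at 0.13 in gra2-D and 0.16 in gra3-D, and ZIP9 at 0.05 and 0.02.

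The remaining 31 members have no name in the gene table, and 17 of them were expressed. These 17 spanned 0.42 to 1.89 in gra2-D. In gra3-D they spanned 0.56 to 1.69. After AT4G33490 and AT4G33040 the largest change was that of AT4G33140, with 7.71, 7.62 and 7.70 in gra2-D, 7.44, 7.51 and 7.67 in gra3-D, 6.67, 6.49 and 6.52 in gra1-D, and 6.57, 6.32 and 6.44 in WT. It stood at 1.24 ± 0.085 (gra2-D) and 1.10 ± 0.085 (gra3-D), with the raised arrays above all others. At the low end AT4G33440 had 6.74, 6.81 and 6.84 in gra2-D, 6.83, 6.86 and 6.66 in gra3-D, 6.04, 6.16 and 6.17 in gra1-D, and 5.98, 6.19 and 6.30 in WT. All raised arrays lay above all gra1-D and WT arrays, at 0.64 ± 0.088 in gra2-D and 0.62 ± 0.088 in gra3-D. AT4G32910 had 8.75, 8.72 and 8.75 in gra2-D, 8.66, 8.62 and 8.68 in gra3-D, 7.66, 7.78 and 7.92 in gra1-D, and 8.04, 8.10 and 8.03 in WT. It stood at 0.68 ± 0.070 in gra2-D and 0.60 ± 0.070 in gra3-D, with gra1-D lowest. Apart from AT4G32915, given below, the other expressed unnamed loci, among them AT4G32930 at 1.08 and 1.003 and AT4G32960 at 0.97 and 0.98, lay between 0.66 and 1.08 in gra2-D.

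By median, members with a WT mean under 5 changed least, while the classes from 5 upward lay between 0.68 and 0.89 over both lines. Of the 16 members with a WT mean under 5 the median change was 0.14 in gra2-D and 0.14 in gra3-D, with 4 of 16 above WT on every array of both lines. The 4 members at 5 to 6 stood at 0.89 and 0.82, the 18 at 6 to 8 at 0.86 and 0.89, and the 16 at 8 to 10 at 0.83 and 0.81. The 4 members at 10 or more stood at 0.68 and 0.80. Where both groups lay under 5, the size of a difference is uncertain. AT4G32970 (0.81 in gra2-D and 0.83 in gra3-D), AT4G33130 (0.68 and 0.89), AT4G33420 (0.43 and 0.84) and PGSIP3 had WT means under 5 and were still above WT on every array.

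**Figure D3:**
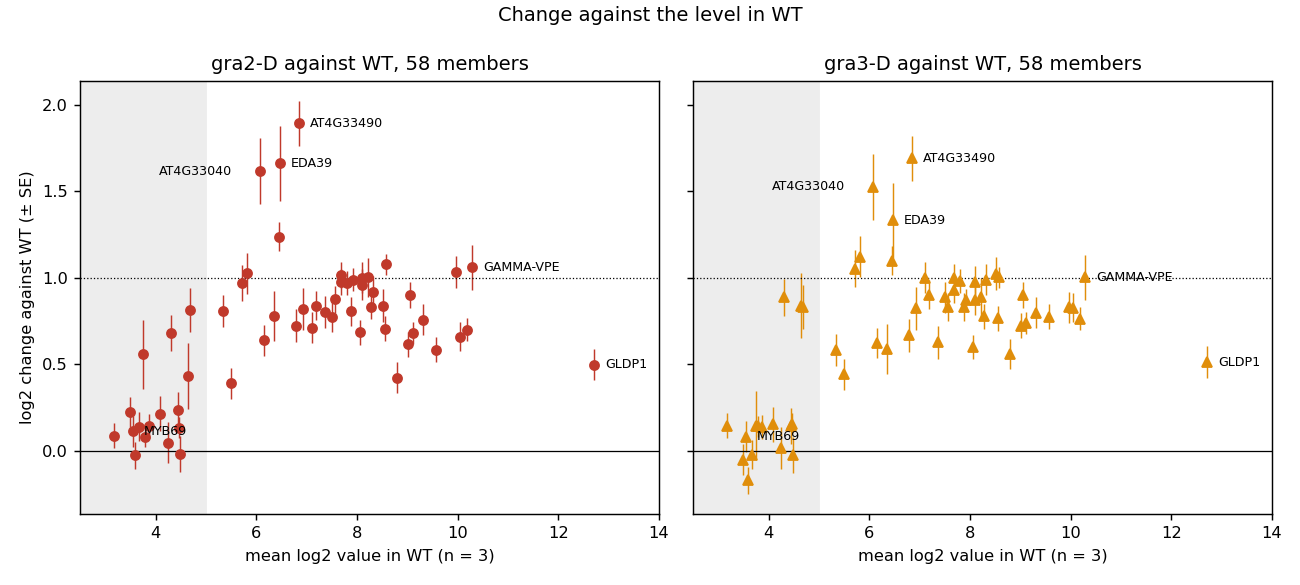
Log2 change against WT with its SE (vertical axes) of the 58 members against their mean log2 value in WT (horizontal axes), gra2-D on the left and gra3-D on the right; the grey band marks WT values under 5 and the dotted line a doubling. Members in the band have a median of 0.14 in both lines, and AT4G33490, EDA39 and AT4G33040 stand above them.

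In gra1-D the expressed members ran from -0.50 to 0.54. The median of their changes between group means was -0.046, beside -0.07 given above as the mean of the medians of single arrays. The shares of members apart from WT without overlap, given above, were not over those of all loci, and single members are described only to set the raised lines beside gra1-D. AT4G32915 had 8.17, 8.45 and 8.28 in gra1-D, against 8.66, 8.93 and 8.82 in WT; it had 9.24, 9.30 and 9.13 in gra2-D and 9.34, 9.33 and 9.41 in gra3-D. Among expressed members its change against WT, averaged over both raised lines, was the smallest (0.42 ± 0.089 in gra2-D, 0.56 ± 0.089 in gra3-D), while it lay 0.92 and 1.06 above gra1-D. Likewise APM1 (-0.23), Tic22-IV (-0.26) and AT4G32910 (-0.27) were lower in gra1-D than in WT on every array. So were ATH1 (-0.10), CBL10 (-0.11) and EIF3K (-0.12). In gra1-D APM1 lay 0.82 and 1.01 below gra2-D and gra3-D, Tic22-IV 0.94 and 0.998, and AT4G32910 0.95 and 0.87.

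Measured from gra1-D, the expressed members centred on 1.92-fold in gra2-D (median log2 difference 0.94) and 1.94-fold in gra3-D (0.96). Their spread over genes was an SD of 0.19 in gra2-D and 0.15 in gra3-D, against 0.29 and 0.24 when measured from WT. All 40 lay above gra1-D on every array in both lines; 7.91% of all loci did so in gra2-D and 4.14% in gra3-D. Low values were those of GLDP1 at 0.61 and 0.63, nPAP at 0.61 and 0.68 and AT4G32920 at 0.74 and 0.55. BAK1 stood at 1.03 and 0.91, ATH1 at 0.93 and 0.87, PFK6 at 0.84 and 0.66, and GAMMA-VPE at 1.21 and 1.16.

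The rule asked for a rise in both gra2-D and gra3-D on these arrays, so a likeness of the lines is partly built into the members. Their differences are given as a description, and nothing is read from how few were called. Limma, fitted over all loci, called 0 of 58 members different at a Benjamini-Hochberg adjusted p under 0.05, while 185 of all loci (0.89%) were called. At an unadjusted p under 0.05 there were 5 members (8.62%), against 9.91% of all loci. The myosin gene XI-I came nearest, with 7.99, 7.80 and 7.65 in gra2-D and 8.23, 8.06 and 8.02 in gra3-D, a log2 difference of -0.29 ± 0.089 (SE, adjusted p = 0.242 by limma). The other 4 were AT4G33230 at 0.27, AT4G33100 at 0.23, PME44 at 0.20 and APM1 at -0.19, with adjusted p between 0.277 and 0.481 by limma.

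Over the 40 expressed members the difference ran from -0.29 for XI-I to 0.33 for EDA39, 20 being higher in gra2-D and 20 in gra3-D, and it stayed under 0.2 in size for 36. The largest differences of all members belonged to PDC1 (0.41 ± 0.20) and AT4G33420 (-0.41 ± 0.19), both at low signal. With a median SE of 0.089, differences of this size could go uncalled, so equality of both lines is not shown.

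**Figure D4:**
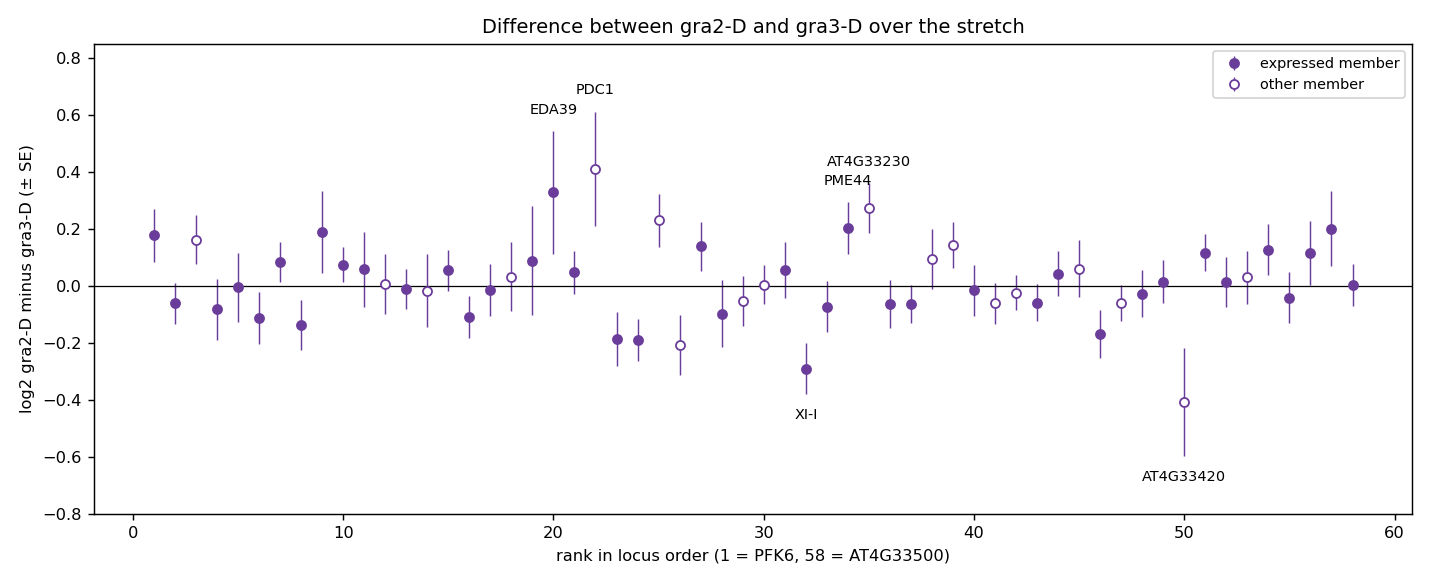
Log2 value of gra2-D minus gra3-D with its SE (vertical axis) for the 58 members in locus order (horizontal axis), filled where expressed. Points scatter on both sides of 0 along the stretch; XI-I at -0.29 had the lowest adjusted p, 0.242 by limma.

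Genes outside every raised run were compared in each line with WT, 58 of them related to members by family or pathway. A further 14 were APC/C activators and subunits, relatives of CDC20.1 and CDC20.2, which are no members and are not analysed here. With 5 loci inside a raised run, the lists held 77 loci on the table, 72 of them outside. Limma called 9 of the 72 in gra2-D, 3 higher and 6 lower (12.5%), beside 11.5% of all loci, 5.24% higher and 6.23% lower. Of the 72, 19 had an unadjusted p under 0.05 by limma in gra2-D, 14 in gra3-D and 11 in gra1-D. For counts of relatives at that unadjusted level no share of all loci is given, so nothing is read from them. After adjustment limma called 0 in gra3-D, beside 6.11% of all loci, 3.13% higher and 2.97% lower. It called 7 in gra1-D, 2 higher and 5 lower (9.72%), beside 5.58% of all loci, 2.82% higher and 2.76% lower. For the 10 genes called in any line, the adjusted p between gra2-D and gra3-D was 0.281 or higher by limma, so a difference between these lines was not shown. Over the 58 relatives of members alone, limma called 6 in gra2-D (10.3%), 0 in gra3-D and 6 in gra1-D (10.3%). At an unadjusted p under 0.05 there were 14, 11 and 9. The 3 comparisons share the WT arrays.

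Photorespiration relatives of GLDP1 gave 3 lower of 12 in gra2-D, 0 in gra3-D and 3 lower of 12 in gra1-D. Of all loci 6.23%, 2.97% and 2.76% were called lower in these lines. The median change of the 12 was -0.11 in gra2-D, -0.12 in gra3-D and -0.12 in gra1-D. The lines share the WT arrays and the list is short, so no change of the pathway is read from these values. GLDP2, the other P-protein gene, averaged 10.90 ± 0.17 in gra2-D, 11.05 ± 0.06 in gra3-D, 11.03 ± 0.05 in gra1-D and 11.27 ± 0.21 in WT (SD, n = 3 each). It fell in gra2-D by 0.37 on the log2 scale (adjusted p = 0.036 by limma, from 0.012 to 0.148 over 14 alternatives). GGT1, a peroxisomal aminotransferase gene, stood at -0.26 in gra2-D, -0.17 in gra3-D and -0.26 in gra1-D, called in gra2-D and gra1-D (adjusted p = 0.0281 and 0.0448 by limma). AT1G80380 fell in gra2-D (-0.46 ± 0.073, adjusted p = 0.000791 by limma) and gra1-D (-0.37, adjusted p = 0.00728 by limma), and stood at -0.24 in gra3-D (adjusted p = 0.0743 by limma). AT1G32470 stood at -0.14, -0.18 and -0.21 in gra2-D, gra3-D and gra1-D, called in gra1-D at the edge of the threshold (adjusted p = 0.0499 by limma) and not called with the replicate number as a block (adjusted p = 0.0508 by limma). SHM1, a serine hydroxymethyltransferase gene of the same pathway, lies in the run raised in all 3 lines and stood at 0.44, 0.48 and 0.45.

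Partners of BAK1 gave 1 call among 7 in gra2-D and in gra1-D, beside 11.5% and 5.58% of all loci, and 0 in gra3-D. BIK1, a cytoplasmic kinase of immune signalling, averaged 6.99 ± 0.11 in gra2-D, 7.13 ± 0.09 in gra3-D, 6.96 ± 0.11 in gra1-D and 7.38 ± 0.10 in WT (SD, n = 3 each). It fell in gra2-D by 0.39 (adjusted p = 0.00741 by limma) and in gra1-D by 0.43 (adjusted p = 0.00724 by limma), and stood at -0.25 in gra3-D (adjusted p = 0.108 by limma). The brassinosteroid receptor gene BRI1 and its substrate gene BSK1 lie in the run raised in all 3 lines, BRI1 at 0.65, 0.73 and 0.68 and BSK1 at 0.79, 0.83 and 0.83 in gra2-D, gra3-D and gra1-D. BAK1 itself stood at 0.99, 0.87 and -0.04.

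Of 5 other phosphofructokinase genes PFK3 rose in gra2-D (0.48 ± 0.073, adjusted p = 0.000579 by limma) and in gra1-D (0.31, adjusted p = 0.0229 by limma), with 0.25 in gra3-D (adjusted p = 0.0605 by limma). Of 11 ZIP metal transporters ZIP4 rose in gra2-D (0.49 ± 0.12, adjusted p = 0.0152 by limma) and gra1-D (0.50, adjusted p = 0.0226 by limma), with 0.33 in gra3-D (adjusted p = 0.135 by limma). Among 14 APC/C activators and subunits, which direct proteolysis in mitosis, APC7 rose in gra2-D by 0.35, APC10 fell by 0.37 in gra2-D and 0.34 in gra1-D, and FZR3, also named CCS52B, fell by 0.37 in gra2-D. The adjusted p of these calls by limma ran from 0.0101 to 0.0401. Not called in gra3-D, APC7 stood there at 0.18, APC10 at -0.24 and FZR3 at -0.38 (adjusted p = 0.243, 0.128 and 0.0531 by limma). Several relatives called in another line were called in gra3-D under some of the 14 alternatives. These were PFK3 under 5, FZR3 and AT1G80380 under 3 each, ZIP4 and AT1G32470 under 2 each, and APC10 under 1. BIK1, APC7, GLDP2 and GGT1 were called there under 0. In gra1-D APC7 stood at 0.20 and FZR3 at -0.21, not called. In the other lists limma called 0 genes in any line without the block: 3 vacuolar processing enzymes, 6 CBL calcium sensors, 3 poly(A) polymerases, 2 pyruvate decarboxylase and alcohol dehydrogenase genes, and 9 BELL and KNOX genes outside the runs. At an unadjusted p under 0.05 there were 1 CBL and 2 BELL or KNOX genes in gra2-D, the same numbers in gra3-D, and 1 vacuolar processing enzyme and 1 BELL or KNOX gene in gra1-D. Nothing is read from these unadjusted counts, since no share of all loci stands beside them. With the replicate number as a block, limma also called the BELL gene BLH8 lower in gra2-D (-0.26, adjusted p = 0.0492, against 0.122 without the block) and BETA-VPE higher in gra1-D (0.51, adjusted p = 0.0443, against 0.0949 without). The BELL genes BLH6 and BLH2 lie in the run raised in all 3 lines and stood at 0.70 and 0.74 in gra2-D.

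Some of these counts changed when a single array was left out. In gra2-D 5 relatives were called without WT replicate 1 and 6 without gra2-D replicate 2 or 3. There were 7 without WT replicate 3 or gra2-D replicate 1, and 9 without WT replicate 2. In gra3-D 3 were called without gra3-D replicate 1, 1 without WT replicate 2 and 0 without each other array. In gra1-D 2 were called without WT replicate 1 or gra1-D replicate 1, 3 without WT replicate 2 or gra1-D replicate 3, and 4 without WT replicate 3 or gra1-D replicate 2. The calls of BIK1 and AT1G80380 in gra2-D and gra1-D, and of PFK3, APC7 and APC10 in gra2-D, held under all 14 alternatives, with adjusted p up to 0.0475 by limma. The call of FZR3 in gra2-D, and those of GGT1 and AT1G32470 in gra1-D, ended without any 1 of the 6 arrays compared. GGT1 in gra2-D kept its call without WT replicate 2 and lost it without each of the other 5. In gra2-D ZIP4 lost its call without WT replicate 1 or gra2-D replicate 3, and GLDP2 without WT replicate 1 or 3 or gra2-D replicate 2 or 3. In gra1-D APC10 and ZIP4 lost theirs without WT replicate 1 or 2 or gra1-D replicate 1 or 3, and PFK3 without WT replicate 1 or 3 or gra1-D replicate 1 or 2.

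**Figure D5:**
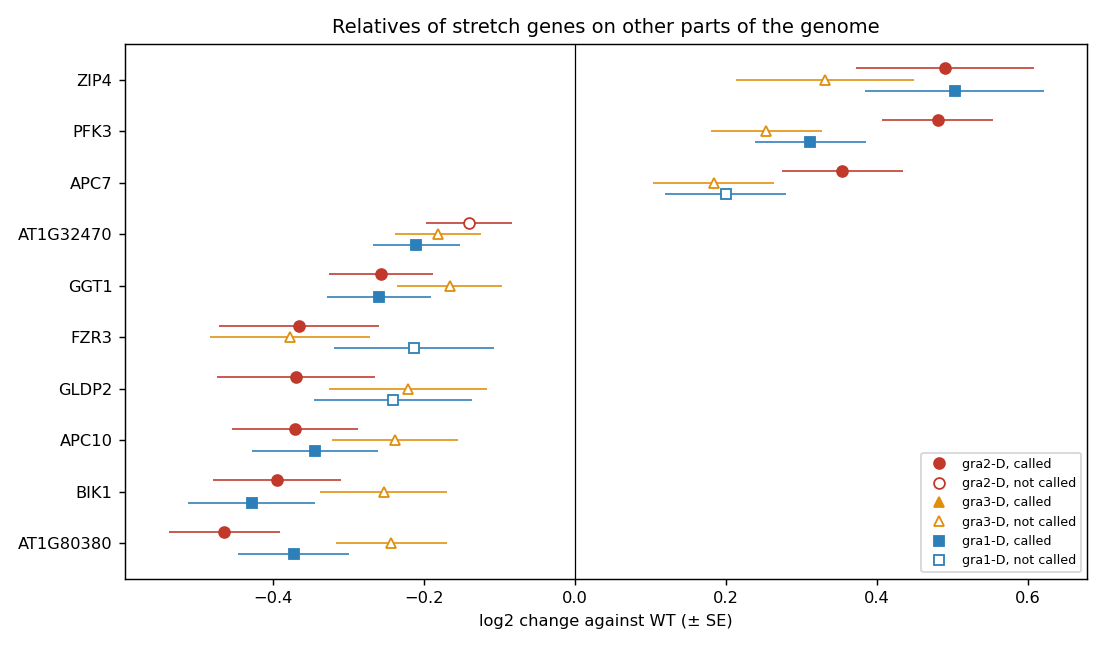
Log2 change against WT with its SE (horizontal axis) of the 10 relatives outside every raised run that were called in at least 1 line, from top to bottom gra2-D, gra3-D and gra1-D within each gene; filled symbols were called at a limma adjusted p under 0.05. ZIP4, PFK3 and APC7 lie to the right of 0 in all 3 lines and the other 7 to the left, with no filled symbol for gra3-D.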

How the data were processed

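Log2 values of 12 ATH1 arrays, processed by the authors with RMA (version not stated) per the submitters' processing notes, were used as deposited. Their scale follows from their range, and the definition that regrouped probes by locus is not given in the sources used here. Members were the rows of the stated locus range, 2 of them not analysed here. Group means of all 4 groups were fitted with limma 3.58.1 in R 4.3.3 (lmFit, eBayes; 8 residual and 5.28 prior degrees of freedom), two-sided, adjusted by Benjamini-Hochberg over 20777 loci, with calls at 0.05. The fit was also run on simulated data with independent noise on each array. That run cannot show how the fit handles the correlation of same-numbered replicates given below. All loci entered the tests. A mean of 6 marked expressed members and a group mean under 5 values close to background.

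Symbols came from a RefSeq gene table of assembly TAIR10.1, which holds all 58 members and names 27. Roles follow those names. Members and lists were chosen with earlier results of these data known. CDC20.1 and CDC20.2 were meant to be named and are not analysed here, and 1 listed relative that the table names as an acyl carrier protein was dropped. Described per array were the first and last member, the 5 largest and 5 smallest changes among expressed members, BAK1, GLDP1, ATH1, PFK6, GAMMA-VPE and nPAP. Every relative called was named, with group means or log2 changes. Arrays carry no read depth, so their number limits the precision. Correlations between arrays ran from 0.9955 to 0.9971 within groups and from 0.9905 to 0.9976 between groups, so the ranges overlapped. No 2 arrays were identical.

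The fit had no replicate block. The pairing of equal replicate numbers comes from the values, not the labels: deviations from the group means correlated at 0.239 to 0.39 in all 9 same-numbered pairs among gra2-D, gra1-D and WT, and at -0.196 to 0.295 in the 9 with gra3-D, 3 of them above 0.1. The numbers were taken as pairing gra2-D and gra1-D with WT, and not gra3-D, and calls that the block changed are given for those 2 lines. Alternatives were a further quantile normalization, centring on chromosomes 1, 2, 3 and 5, filters at 5 and 6, an intensity trend, array weights, a replicate block, the compared groups alone and each array left out.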

Additional observations from a re-analysis of the deposited data

How the results depend on the processing

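Between gra2-D and gra3-D 0 members were called under each of the 14 alternatives, the replicate block included, which supports nothing further since members were kept for a rise in both lines. The median change of the expressed members kept its direction in all lines. In gra2-D it was 0.76 over all members, and 0.84 to 0.90 with an array left out. In gra3-D it was 0.90 with centring on chromosomes 1, 2, 3 and 5, 0.85 for members with a mean of at least 5, 0.79 over all members, 0.85 for members with a WT mean of at least 6, and 0.849 to 0.898 with an array left out. In gra1-D it was -0.037 with a further quantile normalization, -0.028 with centring, -0.026 over all members and -0.087 to -0.026 with an array left out.

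Relatives called numbered 5 to 9 in gra2-D, 0 to 3 in gra3-D and 2 to 4 in gra1-D with an array left out. Calls over all loci then ran from 1761 to 2070 in gra2-D, 817 to 1108 in gra3-D and 794 to 965 in gra1-D. In gra3-D, where limma called 0, there was 1 with array weights, 2 with an intensity trend, 2 and 4 with loci filtered at a mean of 5 and 6, and 5 with the replicate block. In gra1-D, where limma called 7, there were 4 with centring, 4 with a further quantile normalization and 3 with the compared groups alone. The cause of these shifts was not tested. Over all loci, 1269 were called in gra3-D and 817 without gra3-D replicate 2. The replicate numbers matched 10 of 12 arrays best with their own number, a hint from the data and not the design. With the block, 10 relatives were called in gra2-D, 1 of them gained, and 7 in gra1-D, 1 gained and 1 lost, and it changed no other call of a relative in those lines. No value recomputed changed sign under any of these alternatives.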
